A study of Mus musculus with 7 samples.

Results

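The genes described here are the antioxidant response genes governed by the transcription factor NRF2. A list of 10 symbols defines the set by name: Nfe2l2, Keap1, Hmox1, Nqo1, Gclc, Gclm, Txnrd1, Srxn1, Prdx1 and Gpx4. Of these 10 genes, 8 were matched among the 23930 genes measured, and Prdx1 and Gpx4 were not analysed here. None of the 8 passed the test between normocapnia and hypercapnia. Nfe2l2, the gene for NRF2 itself, had the smallest unadjusted p of the 8 in the main limma test, which not every setting kept. It stood at 153 ± 19.9 RPM (reads scaled to a common library total; SD, n = 3) in normocapnia and 116 ± 16.9 (n = 4) in hypercapnia. Both glutamate-cysteine ligase genes, Txnrd1 and Hmox1 also had lower means in hypercapnia, and the differences of Hmox1, Keap1 and Srxn1 changed sign when NC3, 1 of the 3 normocapnia libraries, was left out.

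NRF2 is a basic leucine zipper protein that is made and destroyed continuously in unstressed cells. KEAP1 holds it on a CUL3 ubiquitin ligase that marks it for the proteasome. Reactive cysteines of KEAP1 sense electrophiles and peroxides, and when they are modified NRF2 escapes, enters the nucleus, pairs with a small MAF protein and binds antioxidant response elements near its target genes. Much of this control therefore acts on protein stability, which mRNA levels do not show. In muscle stem cells and in macrophages, the target enzymes make glutathione, return oxidized thiols to their reduced form, degrade heme and detoxify quinones.

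The samples were cells sorted for green fluorescent protein (GFP) from hind leg muscles of Pax7-GFP mice. The labels call the mice C57/B6 littermates, though the number after C57BL/ in the genotype label is a different one for each library, and the study's methods speak of controls matched by age, sex and genotype. In these mice a tamoxifen-activated Cre driven by Pax7, the defining gene of satellite cells (the stem cells of skeletal muscle), removes a stop cassette before the reporter, so daughters of a labelled cell keep GFP after Pax7 is lost. Both groups received tamoxifen at 12 weeks of age, spent 4 weeks in room air (normocapnia, NC1 to NC3) or in a chamber with elevated CO2 (hypercapnia, HC1 to HC4), and were collected at 16 weeks. According to the study's methods the muscles had been injured with cardiotoxin before sorting, which the sample labels do not mention. The deposited table also carries a time in hours in its title that neither the labels nor the methods for these cells account for. The labels do not say whether a library is 1 mouse or a pool, so p-values measure the spread between these 7 libraries.

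The libraries held 14527445 to 23388710 reads, and no pair among them differed by as little as sampling noise. Satellite cell markers were uneven: their 8 genes summed to 1597 RPM in NC1, 90.4 in NC2 and 59.6 in NC3, against 281.1 to 719.6 RPM in hypercapnia. The 10 macrophage markers summed to 11849 RPM in NC1, 23135 in NC2 and 35553 in NC3, against 20091 to 24301 RPM in hypercapnia. Lyz2, the lysozyme gene, made up most of that sum, and the other 9 markers summed to 3495, 9822 and 6446 RPM in NC1 to NC3 and to 5640 to 7573 RPM in hypercapnia. Of the 10 macrophage markers, 6 were higher and 4 lower in hypercapnia on the log2 scale. By the rule given with the tests 1 was called, beside 4.75% of genes at 1 RPM or more. It was Adgre1 (F4/80), at 109, 149 and 70.5 RPM in normocapnia and at 392, 429, 151 and 184 RPM in hypercapnia, 2.49-fold higher (limma adjusted p = 0.915). Pax7 itself ran from 4.34 RPM in NC3 to 268 RPM in NC1, and C1qa was the macrophage marker under 1 RPM in every library. In a bulk library, fewer cells of a type and less RNA per cell cannot be told apart. Each gene was read through its own amplicon, so levels are compared between libraries and not between genes.

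The DNA that NRF2 recognises was searched for in the reference promoters, because it is the sequence through which NRF2 acts on its targets. The search took the antioxidant response element as TGACNNNGC on either strand, in RefSeq windows reaching from 250 bases before to 50 bases after each start (build GRCm38.p6). A match was present in 4071 of 32851 promoters, or 12.4%. Of the members, 6 had promoter entries, and 4 of the 6 held a match: Nfe2l2, Gclm, Txnrd1 and Srxn1. Among the other antioxidant genes listed further down, 15 of 63 with an entry held one. These counts are of genes, with a match in any window, whereas the 12.4% is of single promoters. The 6 members have 8 promoters, so the shares are not in like units. Each stretch below is printed in the direction of the motif, which is in capitals.
Nfe2l2, chr2:75704885-75704913, minus strand: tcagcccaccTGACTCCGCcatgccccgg
Gclm, chr3:122245413-122245441, minus strand: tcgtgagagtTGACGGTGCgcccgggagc
Txnrd1, chr10:82859104-82859132, minus strand: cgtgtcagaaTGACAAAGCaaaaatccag
Srxn1, chr2:152105542-152105570, minus strand: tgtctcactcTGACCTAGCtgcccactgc

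Nfe2l2 lies on the minus strand, so its motif runs in the direction of the gene, and the other 3 matches lie on the strand opposite their gene. Txnrd1 has more than 1 promoter window in the table, and 1 of them holds the match. The motif edge farthest upstream was at position -240 from the start for Nfe2l2, at -134 for Gclm, at -92 for Txnrd1 and at 29 for Srxn1. The element resembles the AP-1 site, here TGANTCA, which reads the same on both strands and was found in 7.81% of the promoters. Srxn1 was the only member with an AP-1 site in its window, and it had a pair of them, shown here in capitals because sulfiredoxin's promoter holds both kinds of letters.
Srxn1, chr2:152105412-152105438, plus strand: tcggagggccTGAGTCAccacgctgtg
Srxn1, chr2:152105469-152105495, plus strand: aaattcacccTGAGTCAgcggccgggc

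The search for the element required TGAC, so the letters TGAGTCAgc in the last stretch above were not counted as a match to it. A match is a description of letters in the reference and not a measured binding site. Nqo1 and Keap1 had no match in their windows, which says only that these letters are not in them.

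For the comparison of the groups, each gene was tested with limma on log2(RPM + 1), and a gene was called when its unadjusted p was under 0.05 and its fold change above 1.5. By that rule 615 of the 23930 genes were called, or 2.57%, and 4.75% of the 12504 genes whose mean reached 1 RPM. Of the 8 members, all above that level, 0 were called, and 1, Nfe2l2, had an unadjusted limma p under 0.05, a line that 7.58% of genes at that level crossed. In 0 of the 8 were the groups separate, beside 7.72% of genes at that level. No gene of the whole table had a limma adjusted p (Benjamini-Hochberg) under 0.05, while 1114 had an unadjusted p under 0.05. edgeR on the recovered read counts likewise had 0 genes under an adjusted p of 0.05 and called 802 (6.03%), and DESeq2 had 29 (0.223%) and called 1304 (6.25%), with 0 members called by either. The members' median log2 fold change was -0.28, with 3 members higher and 5 lower in hypercapnia, beside a median of 0.16 over the 12504 genes. Scaling moved that median of all genes, to 0.04 with median-of-ratios factors and -0.01 with quantile normalization, and the members' median was then -0.43 and -0.22.

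**Figure D1:**
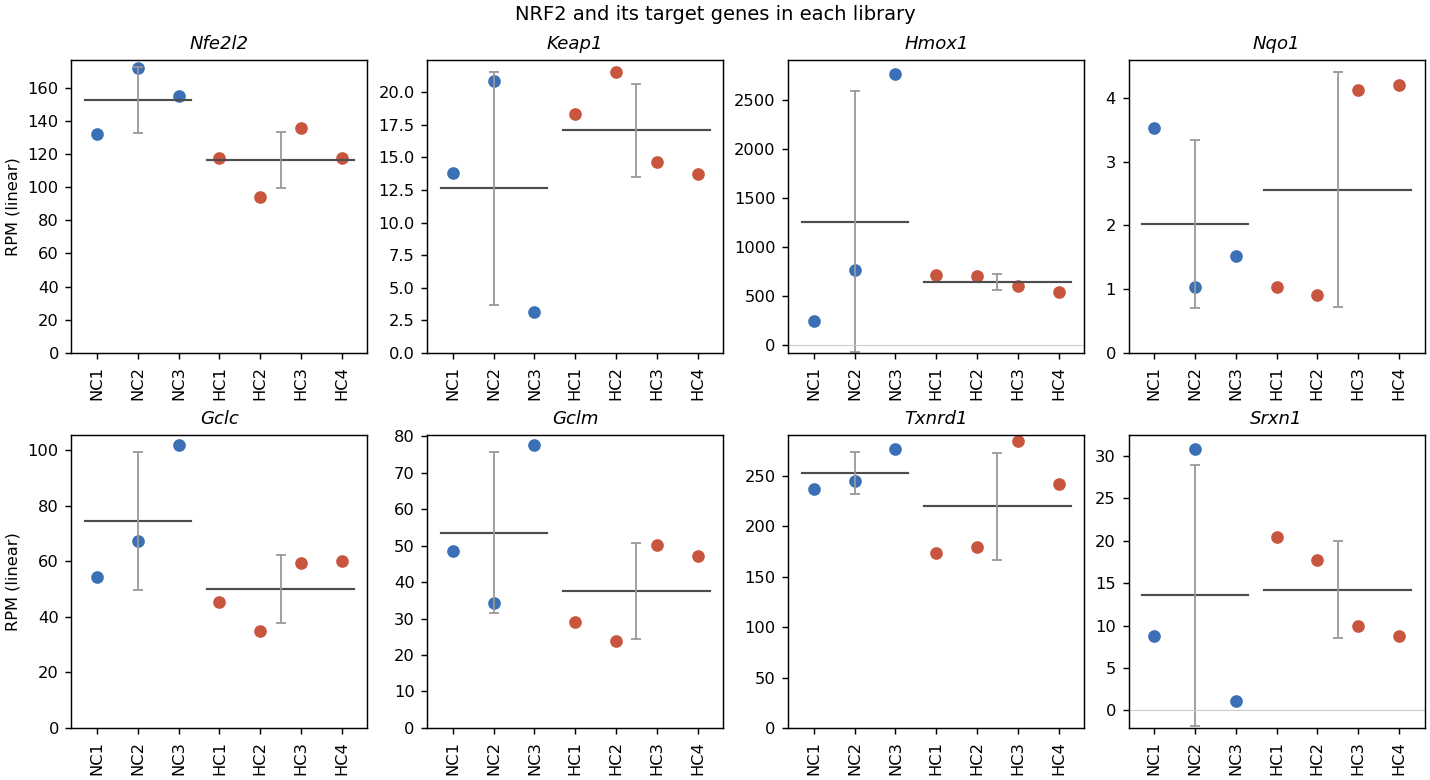
RPM of the 8 members in each library, on linear axes, with normocapnia and hypercapnia side by side; points are libraries, bars are group means and grey lines the SD (n = 3 and n = 4). Hmox1, Keap1 and Srxn1 spread widely in normocapnia, and no member's groups are separate.

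Nfe2l2 stood at 132, 172 and 155 RPM in NC1 to NC3 and at 118, 94.4, 136 and 118 RPM in HC1 to HC4. The groups overlapped at a single point, HC3 lying above NC1, and the other 3 hypercapnia libraries were below all of normocapnia. The log2 fold change was -0.39 (SE 0.15, 95% interval -0.77 to -0.02), a level 1.31-fold lower in hypercapnia and short of the fold needed for a call. The limma adjusted p was 0.915, edgeR gave a log2 fold change of -0.56 (adjusted p = 0.758) and DESeq2 -0.60 (adjusted p = 0.570). The unadjusted limma p of Nfe2l2 was 0.0416, and 0.177 with a filter at a mean of 1 RPM. With 1 library left out it ran from 0.0259 (without HC3) to 0.130 (without NC2). Unadjusted p was 0.0952 by edgeR and 0.0767 by DESeq2, and Gclc had smaller values in both (0.0738 and 0.0619).

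Keap1, which encodes the sensor that directs NRF2 to degradation, stood at 13.8, 20.9 and 3.17 RPM in normocapnia and at 18.3, 21.6, 14.7 and 13.7 RPM in hypercapnia. NC3, with 46 reads, was far below every other library, and the remaining 6 libraries shared the range from 13.7 to 21.6 RPM. The log2 fold change of Keap1 was 0.69 (SE 0.60, 95% interval -0.80 to 2.18; limma adjusted p = 0.915), 0.45 with edgeR and 0.43 with DESeq2, and it was -0.01 without NC3.

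Since KEAP1 protein acts directly on NRF2 protein, the log2 ratio of their transcripts in each library was also compared between the groups. Keap1 to Nfe2l2 was -3.17, -2.98 and -5.23 in normocapnia and -2.62, -2.08, -3.12 and -3.01 in hypercapnia. The mean was -3.79 ± 1.25 in normocapnia and -2.71 ± 0.47 in hypercapnia (SD), a difference of 1.08 that did not pass an exact two-sided permutation test over 35 splits (p = 0.0857, adjusted over the 3 ratios computed 0.257). The smallest p that design allows is 0.0286, and without NC3 the difference was 0.37.

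Gclc and Gclm encode the catalytic and the modifier subunit of glutamate-cysteine ligase, the enzyme that limits the rate of glutathione synthesis. Gclc stood at 54.2, 67.2 and 102 RPM in normocapnia and at 45.4, 34.8, 59.5 and 60.1 RPM in hypercapnia. Gclm stood at 48.5, 34.3 and 77.6 RPM in normocapnia and at 29.1, 23.7, 50.2 and 47.1 RPM in hypercapnia. For both subunits NC3 was the highest library and HC2 the lowest, and the groups overlapped.

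Gclc averaged 74.5 ± 24.8 RPM in normocapnia and 50.0 ± 12.2 RPM in hypercapnia, a log2 fold change of -0.55 (SE 0.30, 95% interval -1.29 to 0.19). Gclm averaged 53.5 ± 22.1 and 37.6 ± 13.1 RPM, a log2 fold change of -0.49 (SE 0.39, 95% interval -1.47 to 0.50). Both had a limma adjusted p of 0.915. The count models gave larger differences, -0.82 (edgeR) and -0.87 (DESeq2) for Gclc and -0.76 and -0.82 for Gclm, and called neither. Without NC3 the limma differences were smaller, -0.30 for Gclc and -0.18 for Gclm. The log2 ratio of the modifier to the catalytic subunit was -0.50 ± 0.41 in normocapnia and -0.44 ± 0.17 in hypercapnia, a difference of 0.06 (exact permutation p = 0.857) that is smaller than the spread within either group.

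Txnrd1, the cytosolic thioredoxin reductase that passes electrons from NADPH to thioredoxin, stood at 237, 245 and 277 RPM in normocapnia and at 174, 179, 285 and 242 RPM in hypercapnia. HC3 was the highest of the 7 libraries and HC1 the lowest, so the hypercapnia libraries held the whole normocapnia range between them. The log2 fold change was -0.23 (SE 0.20, 95% interval -0.73 to 0.27; limma adjusted p = 0.915), and it was -0.38 with edgeR and -0.43 with DESeq2.

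Srxn1 encodes sulfiredoxin, which restores peroxiredoxins that peroxide has over-oxidized. It stood at 8.74, 30.8 and 1.10 RPM in normocapnia and at 20.4, 17.7, 10.0 and 8.80 RPM in hypercapnia. Normocapnia held both the highest and the lowest library, with a 28.0-fold gap between NC2 and NC3 (16 reads), and every hypercapnia library fell between them. The log2 fold change of 0.73 (SE 0.96, 95% interval -1.66 to 3.12; limma adjusted p = 0.915) was 0.08 with edgeR and 0.07 with DESeq2, and -0.29 in limma without NC3. Its promoter is the one printed above with both the antioxidant response element and AP-1 letters.

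Hmox1 encodes heme oxygenase 1, which opens the heme ring and releases iron, carbon monoxide and biliverdin, and which macrophages use when they clear red cells. It stood at 248.7, 764 and 2768 RPM in normocapnia and at 717, 706, 606 and 547 RPM in hypercapnia. The highest normocapnia library was 11.1 times the lowest, whereas the hypercapnia libraries lay within 1.31-fold of each other and wholly inside the normocapnia range. More spread in normocapnia was common, seen on the log2 scale in 5 of the 8 members and in 81.1% of genes at 1 RPM or more. The log2 fold change was -0.33 (SE 0.81, 95% interval -2.35 to 1.68; limma adjusted p = 0.991), and without NC3 it was 0.55. With all libraries kept it was -1.36 in edgeR (adjusted p = 0.759) and -1.42 in DESeq2 (adjusted p = 0.570). Summed macrophage markers were lowest in NC1 and highest in NC3 as Hmox1 was, but without Lyz2 they were highest in NC2. Of the 10 markers, 3 were highest in NC3 among the normocapnia libraries and 6 in NC2, and the part of those cells in the Hmox1 level was not tested.

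Nqo1, a quinone reductase often used as a readout of NRF2 activity, was scarce in all libraries. It stood at 3.52, 1.03 and 1.51 RPM in normocapnia and at 1.03, 0.904, 4.12 and 4.20 RPM in hypercapnia, from 18 to 79 reads each. NC1, HC3 and HC4 formed the upper values and the other 4 libraries the lower ones, with both groups in each. The log2 fold change was 0.16 (SE 0.53, 95% interval -1.16 to 1.49; limma adjusted p = 1), and that interval takes in differences of over 2-fold in either direction. The log2 ratio of Hmox1 to Nqo1 ran from 5.79 in NC1 to 10.1 in NC3 and from 6.72 to 8.54 in hypercapnia, and the groups differed by -0.50 (exact permutation p = 0.629, adjusted 0.857).

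**Figure D2:**
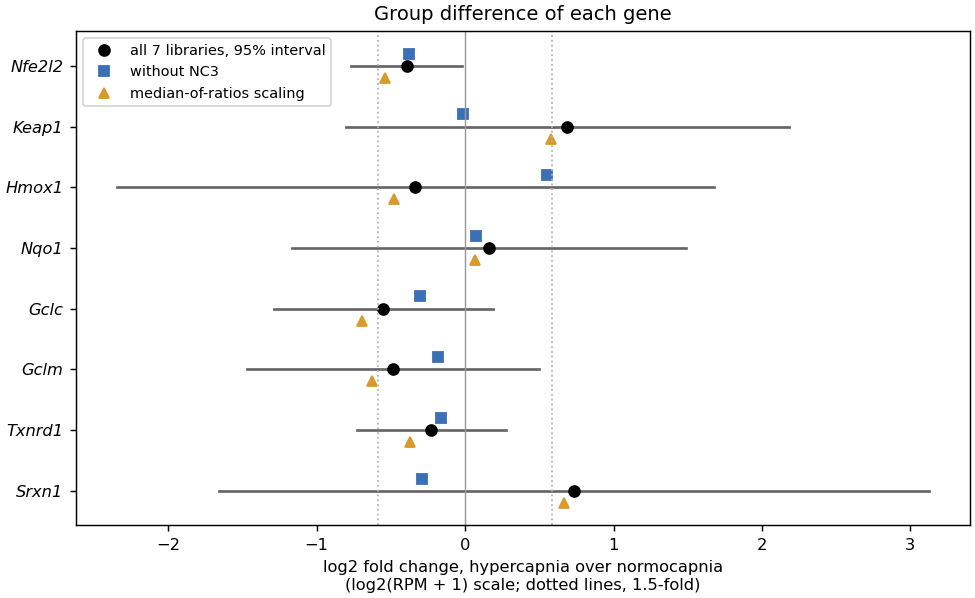
Log2 fold change of each member, hypercapnia minus normocapnia, with limma's 95% interval; squares give the value without NC3, triangles the value after median-of-ratios scaling, and dotted lines mark a 1.5-fold change. Every interval except that of Nfe2l2, which ends at -0.02, crosses 0, and the squares of Hmox1, Keap1 and Srxn1 lie on the other side of 0 from their points.

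The members split in a second way that follows neither group. In 5 of the 8, namely Nfe2l2, Nqo1, Gclc, Gclm and Txnrd1, HC3 and HC4 were both above HC1 and HC2, and in the remaining 3, Keap1, Hmox1 and Srxn1, both were below. Of the 12504 genes at 1 RPM or more, 68.2% had HC1 and HC2 on one side of HC3 and HC4, so the split is common to the table. Marker levels moved with it: endothelial markers summed to 55.1 and 43.5 RPM in HC1 and HC2 and to 445 and 345 RPM in HC3 and HC4. All 5 of them were higher in HC3 and HC4. Satellite cell markers summed to 294.7 and 281.1 RPM in the first pair and to 719.6 and 553.8 RPM in the second, with 7 of the 8 higher in HC3 and HC4. Neutrophil markers (114 and 78.3 against 294 and 198 RPM), myofiber markers (462 and 276 against 859 and 1599 RPM) and fibro-adipogenic markers (891 and 839 against 1767 and 2166 RPM) also summed higher in HC3 and HC4, with 5 of 6, 5 of 6 and 3 of 5 genes separate. Of the 10 macrophage markers, 6 were lower in HC3 and HC4 than in HC1 and HC2 and 4 were not separate, and their sum was 24301 and 20883 RPM against 20091 and 20674 RPM. The labels name no batch for either pair, and the part of these cells in the members' levels was not tested.

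In normocapnia, NC3 was the library farthest from the other two in 6 of the 8 members, beside 44.3% of genes at 1 RPM or more. It was the highest library for Hmox1, Gclc and Gclm and the lowest for Keap1 and Srxn1. NC3 also held the fewest reads, the fewest genes at 1 RPM or more (10619) and the most genes at 0 (8142) of the 7 libraries. Among the normocapnia libraries it was lowest in 7 of 8 satellite cell markers, 6 of 6 myofiber markers, 6 of 6 neutrophil markers and 4 of 5 endothelial markers. The part of these differences in the members' levels was not tested. Its summed macrophage markers were the highest with Lyz2 and lay below those of NC2 without it.

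The wider antioxidant network was taken as 81 further genes in 8 lists by function, of which 76 were measured. They were higher in hypercapnia in 52 and lower in 24, with a median log2 fold change of 0.24. For the 68 that reached a mean of 1 RPM the median was 0.28, beside 0.16 over all genes at that level. The rule called 6 of them, all among the 68, 4 higher and 2 lower. Of genes at that level 2.66% were called higher and 2.1% lower (1.43% and 1.14% of all genes), and the lowest limma adjusted p among the 76 was 0.650. All 6 had groups that did not overlap, as did Nfe2l1, beside 7.72% of genes at 1 RPM or more and 4.83% of all genes. Without NC1 or without NC2 the number called was 12, and without HC1, HC2 or HC4 it was 4. The share of all genes called with a library left out is not given here, so these counts say nothing particular to the network.

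**Figure D3:**
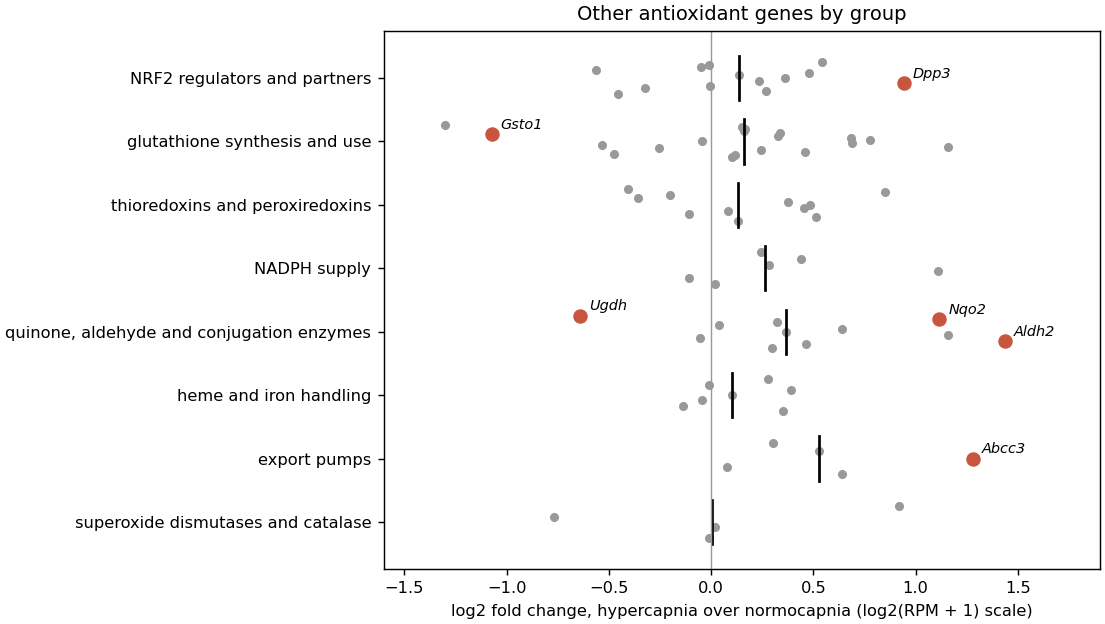
Log2 fold change, hypercapnia minus normocapnia, of every measured gene in the 8 lists; red points were called, others were not, and black bars are list medians. Red points number 3 among the quinone, aldehyde and conjugation enzymes and 1 each among the regulators, the glutathione genes and the export pumps.

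Of the called genes, 3 belong to the 11 measured enzymes for quinones, aldehydes and conjugation, a list with 9 genes higher, 2 lower and a median of 0.37. Nqo2, a quinone reductase related to NQO1 that uses dihydronicotinamide riboside, stood at 32.7, 27.0 and 37.4 RPM in normocapnia and at 87.6, 79.7, 51.7 and 69.4 RPM in hypercapnia. Nqo2 was 2.17-fold higher in hypercapnia (log2 fold change 1.12, SE 0.21; limma adjusted p = 0.650), with every hypercapnia library above every normocapnia library. The call held under all 17 alternative settings, beside 0 of 17 for Nqo1.

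Aldh2, the mitochondrial aldehyde dehydrogenase that clears acetaldehyde and lipid aldehydes, stood at 246, 281 and 122 RPM in normocapnia and at 592, 680, 446 and 518 RPM in hypercapnia. It was 2.70-fold higher in hypercapnia (log2 fold change 1.44, SE 0.33; limma adjusted p = 0.768) and was called under all 17 settings. Ugdh, which makes the UDP-glucuronic acid used for glucuronidation, went the other way, from 46.1, 56.1 and 82.5 RPM to 43.0, 41.8, 35.7 and 32.3 RPM. Its log2 fold change of -0.64 (SE 0.22; limma adjusted p = 0.915) was called under 8 of the 17 settings. The Ugdh call was lost without NC2 (-0.69), NC3 (-0.41), HC3 (-0.61) or HC4 (-0.57).

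The 4 export pumps that reached a mean of 1 RPM all had higher log2 means in hypercapnia, as did 7765 of the 12504 genes at that level. Their median was 0.58 and 1 was called, while Abcc2 had 0 to 3 reads in a library. Abcc3, a pump for organic anions and glucuronide conjugates, stood at 49.4, 75.5 and 28.3 RPM in normocapnia and at 119, 162, 88.5 and 108 RPM in hypercapnia. It was 2.43-fold higher in hypercapnia (log2 fold change 1.28, SE 0.38; limma adjusted p = 0.909) and was called under all 17 settings. Over the 7 libraries Abcc3 and Aldh2 stood in the same order as the macrophage marker Adgre1, which was also called and 2.49-fold higher: HC2, HC1, HC4, HC3, NC2, NC1 and NC3 from high to low. Of the 10 macrophage markers, 6 were higher and 4 lower in hypercapnia, and only Adgre1 was called. No other macrophage marker stood in this order. The order was noticed after the values were seen, and the part of macrophages in these levels was not tested.

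Of the 13 measured regulators and partners of NRF2, 7 were higher and 6 lower, with a median of 0.14 and 1 call. Dpp3, a peptidase that can bind KEAP1 in place of NRF2, stood at 121, 120 and 55.9 RPM in normocapnia and at 184, 198, 155 and 187 RPM in hypercapnia. Its log2 fold change was 0.94 (SE 0.30; limma adjusted p = 0.915), and the call was lost without NC3 (0.58, a change under 1.5-fold), HC1 (0.93), HC2 (0.90) or HC4 (0.92). Nfe2l1 encodes NRF1, a relative of NRF2 that binds the same elements and controls proteasome genes, and is named here after its values were seen. It stood at 209, 168 and 286 RPM in normocapnia and at 122, 148, 167 and 150 RPM in hypercapnia, groups that do not overlap. Its log2 fold change was -0.56 (SE 0.20; limma adjusted p = 0.915), just under the 1.5-fold line, and DESeq2 called it (-0.84).

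Among the 19 measured glutathione genes, 13 were higher and 6 lower, with a median of 0.16 and 1 call. Gsto1, an omega-class glutathione transferase with thiol transferase activity, fell from 122, 121 and 253 RPM in normocapnia to 61.6, 57.3, 95.8 and 84.8 RPM in hypercapnia. Its log2 fold change was -1.07 (SE 0.34; limma adjusted p = 0.915), and the call was lost without HC1 (-0.99) or HC2 (-0.96). Like Gclc and Gclm, Gsto1 was highest in NC3 and lowest in HC2.

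**Figure D4:**
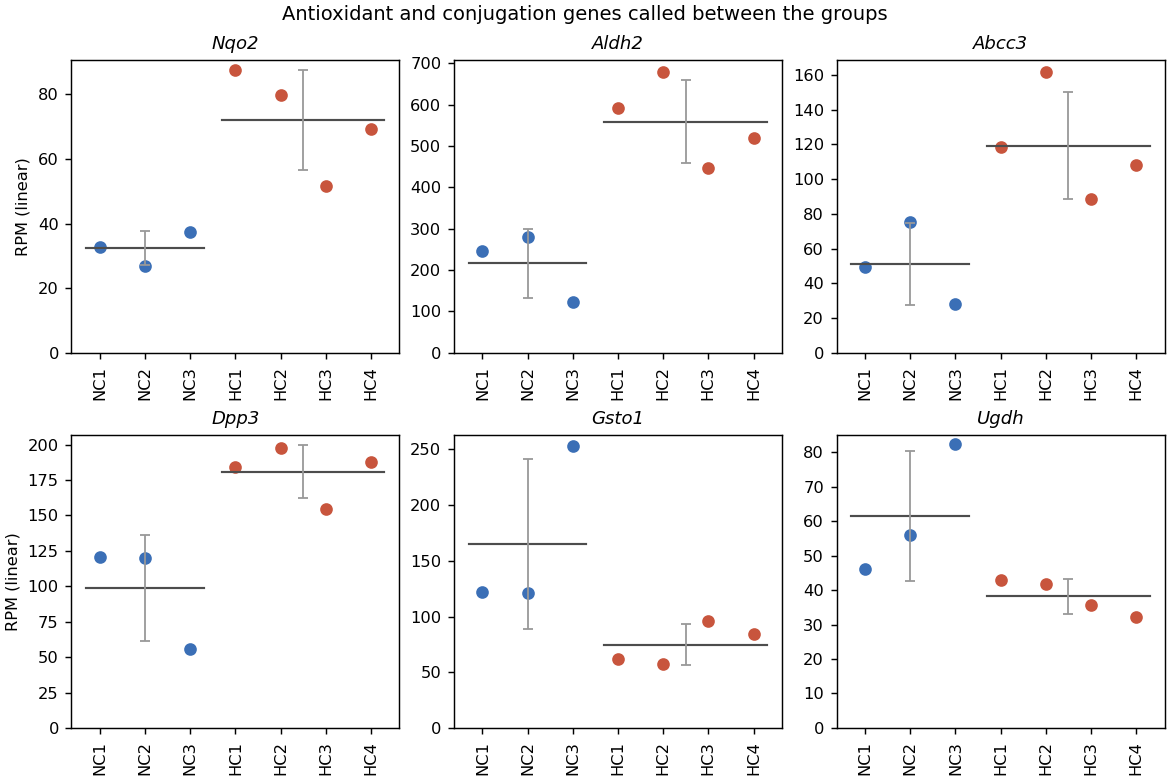
RPM of the 6 called genes of the wider network in each library, on linear axes that start at 0; points are libraries, bars are group means and grey lines the SD (n = 3 and n = 4). The groups are separate in all 6, with Nqo2, Aldh2, Abcc3 and Dpp3 higher and Gsto1 and Ugdh lower in hypercapnia.

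No gene was called in the remaining 4 lists, and those with the smallest p of each are given by value. The 11 thioredoxins and peroxiredoxins had a median of 0.13, with Txn1, the cytosolic thioredoxin that TXNRD1 reduces, at 1020 ± 68.6 RPM in normocapnia and 802 ± 127 RPM in hypercapnia (log2 fold change -0.36, SE 0.13). Txnrd2, the mitochondrial reductase, stood at 1.61 ± 1.26 and 3.34 ± 0.75 RPM (log2 fold change 0.85, SE 0.40). The 6 genes of NADPH supply had a median of 0.26, with Taldo1, transaldolase of the pentose phosphate pathway, at a log2 fold change of 0.44 (SE 0.29) and Me1, malic enzyme, at 1.11 (SE 1.07).

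The 5 genes of heme and iron handling that reached a mean of 1 RPM had a median of 0.28, and all 7 had a median of 0.10, the value of Fth1. Hmox2, the constitutive heme oxygenase, had a log2 fold change of 0.39 (SE 0.32), with 201 ± 77.0 RPM in normocapnia and 258 ± 62.3 RPM in hypercapnia. Fth1, the ferritin heavy chain, was listed at 0 in NC1, NC2, NC3 and HC1 and at 0.050, 0.187 and 0.068 RPM in HC2 to HC4. These are 1, 3 and 1 reads, too few to compare the groups for Fth1. Of the superoxide dismutases and catalase, Sod2, the mitochondrial enzyme, stood at 177, 299 and 430 RPM in normocapnia and at 152, 142, 212 and 165 RPM in hypercapnia (log2 fold change -0.77, SE 0.33), and Sod3, the extracellular enzyme, had a log2 fold change of 0.92 (SE 0.78). Sod2 was called by edgeR (-1.11) and DESeq2 (-1.16) but not by limma.

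The profiles nearest to Nfe2l2 and to Hmox1 over the 7 libraries were looked up among the 8228 other genes with means of 10 RPM or above, by Euclidean distance on centred log2(RPM + 1). Nearest to Nfe2l2 were Fam208a at a distance of 0.20, Pfkp, a phosphofructokinase of glycolysis, at 0.23 and Leo1, a subunit of the PAF1 transcription elongation complex, at 0.25. Nearest to Hmox1 was Ctsl, the lysosomal protease cathepsin L, at 0.63, with 980.0, 2492 and 9997 RPM in normocapnia and 2341, 2630, 1471 and 1459 RPM in hypercapnia. Rassf2 followed at 0.69 and Glrx, the glutaredoxin that removes glutathione from proteins, at 0.73.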

How the data were processed

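RNA of 7 libraries was measured with the Ion AmpliSeq Transcriptome Mouse kit, 1 amplicon per gene, on an Ion GeneStudio S5 Plus. The deposited values are RPM, reads per gene that the authors scaled to the same total in each library. The submitters' processing notes name Transcriptome Analysis Console, and the sources used here give no aligner or build. Read counts were recovered from the deposited RPM, 100% of values being whole within 0.05 read. limma 3.58.1 in R 4.3.3 was fitted to log2(RPM + 1) of all 23930 genes (2443 at 0 in every library), with no filter and no covariate. A fold change on that scale understates the change of low genes. Alternatives were other pseudocounts (0.1 and 5 RPM), a filter on the mean (1 RPM), scaling by median-of-ratios or by quantiles, a prior following the mean, edgeR 4.0.16, DESeq2 1.42.0, each library left out and a replicate block. The fits were tested on simulated data. Ratios were compared by exact permutation.

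The members and lists were chosen with earlier results of these data known. Named were all members, the called genes of each list or else those with the 2 smallest p, and the 3 nearest profiles. Of the 81 network genes, Rbx1, Gstp1, Akr1b3, Ugt1a6a and Ftl1 were not analysed here. Marker lists for lymphocytes (summed 0.351 to 3.05 RPM), neutrophils (65.4 to 293.6 RPM), fibro-adipogenic cells (839 to 2166 RPM), myofibers (134 to 2897 RPM) and red blood cells (1 of 4 genes measured, 0.201 to 15.4 RPM) were also summed.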

Additional observations from a re-analysis of the deposited data

How the results depend on the processing

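Over 17 alternatives for each of 8 members, 1 of 136 values was called, Gclm with the replicate block (log2 fold change -0.62; limma adjusted p = 0.702), which leaves out HC4 because it has no partner and brings the members called to 1. Nfe2l2, Gclc, Gclm and Txnrd1 kept their direction in all 17, but their size moved when 1 library was left out. Nfe2l2 ran from -0.50 (without NC1) to -0.30 (without HC2) and Gclc from -0.75 (without NC1) to -0.30 (without NC3). Gclm ran from -0.76 (without NC2) to -0.18 (without NC3) and Txnrd1 from -0.36 (without HC3) to -0.13 (without HC1). With 1 library left out, Keap1 ran from -0.014 (without NC3) to 1.18 (without NC2), Hmox1 from -1.18 (without NC1) to 0.55 (without NC3) and Srxn1 from -0.29 (without NC3) to 1.67 (without NC2). Nqo1 ran from -0.083 (without NC2) to 0.50 (without NC1), at -0.067 without HC3 and -0.074 without HC4, and was -0.19 with quantile normalization and -0.074 with the block. The Gclm to Gclc ratio went to -0.16 without NC2 and -0.000188 without HC3. Leaving out 1 library gave differences in ratio of -0.16 to 0.24 for Gclm to Gclc, 0.37 to 1.49 for Keap1 to Nfe2l2 and -1.68 to 0.48 (without NC3) for Hmox1 to Nqo1. Network genes called ranged from 4 to 12 with 1 library left out, 3 to 10 of them higher and 1 to 5 lower, with no share of all genes beside them. Those called lower numbered 4 with DESeq2 and with edgeR without a filter, and 1 in limma with the filter at 1 RPM, median-of-ratios scaling, quantile normalization and the block. The causes of these changes were not tested.

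Whether same-numbered libraries form pairs cannot be told from these values. Their deviations from the group means correlated at -0.35, 0.50 and -0.04, and the block rests on a shared number only. A Srxn1 to Prdx1 ratio was planned and not run. Nqo1, Srxn1 and Keap1 rested on the fewest reads, with as few as 18, 16 and 46 in a library, those of Srxn1 and Keap1 in NC3, where their RPM was also lowest.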

Other observations

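Further genes of the wider network, chosen here after their values were seen, also varied widely between libraries of a group. Slc7a11, the cystine transporter that feeds glutathione synthesis, stood at 39.96, 149 and 31.9 RPM in normocapnia and at 18.2, 5.63, 49.0 and 49.0 RPM in hypercapnia. Its log2 fold change was -1.30 (SE 0.95; limma adjusted p = 0.915). Gsr, glutathione reductase, stood at 54.8, 29.4 and 28.7 RPM and at 14.0, 11.3, 49.7 and 44.3 RPM. Both were lower in HC1 and HC2 than in HC3 and HC4, as were Gclc and Gclm. Glrx stood at 97.8, 315 and 645 RPM in normocapnia and at 211, 188, 211 and 173 RPM in hypercapnia, with the hypercapnia libraries inside the normocapnia range as for Hmox1.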
